A study of Mus musculus with 6 samples.

Results

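A set of 52 genes with 3 or fewer read counts in one genotype group and 10 or more in the other was described in epididymal white adipose tissue (eWAT), a visceral fat depot next to the epididymis, of mice after a high-fat diet. The genes were chosen from the raw counts of 54532 gene identifiers. A gene entered the set if it had 10 or more counts in each of the 3 knockout libraries and 3 or fewer in both control replicates 1 and 3, or 10 or more in both these controls and 3 or fewer in each knockout library. Control replicate 2, which had a liver profile, was not used in the choice, and Syt1 and Aqp4 were left out by name. The choice gave 20 genes higher in knockouts, led by Gpr50, and 32 genes higher in controls. These were 0.138% of the 14475 genes with 10 or more counts in each knockout library, and 0.217% of the 14713 genes with 10 or more in control replicates 1 and 3. Since the counts chose the genes, the size of their difference between genotypes is given as a description, with no test.

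All 6 libraries came from mice whose Pdcd1 gene, which encodes the inhibitory receptor PD-1, carries loxP sites on both copies (PD-1fl/fl). The 3 knockout libraries came from mice that also carried Lyz2-Cre, and the 3 control libraries from littermates without Cre. Both groups received the high-fat diet for 16 weeks. Cre driven from the lysozyme 2 locus acts in macrophages and other myeloid cells such as neutrophils, so the other cells of the fat pad keep the gene. Whether each library is a separate animal is not stated in the labels. Replicate numbers follow record order and pair no samples. Knockout replicate 3 and control replicate 3 carry adjacent numbers in their titles, and the labels do not say what these numbers mark. Control replicate 2 is the library titled HF_7690_eWAT.

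White fat holds adipocytes, macrophages and other immune cells, vessels, progenitors and nerve fibres, and whole-tissue RNA sums over all of them. In such bulk tissue, fewer cells of a type and less RNA per cell cannot be told apart. Gpr50 is an orphan receptor. It belongs to the family of G protein-coupled receptors as the X-linked relative of the melatonin receptors Mtnr1a and Mtnr1b, does not bind melatonin itself, and is best known from tanycytes of the hypothalamus and the pituitary.

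Library totals were 20108185 to 27225533 counts, so that 3 counts, used as the detection floor, stood for 0.110 to 0.149 CPM (counts scaled to the library total). Control replicate 2 held 82660 CPM of the albumin gene Alb, against 4362 in control replicate 3, 817 in knockout replicate 2 and 4.83 to 61.7 in the other libraries. Its 14 adipocyte markers summed to 1289 CPM, against 32937 to 66103 in the other libraries. The deleted gene Pdcd1 had 19, 19 and 5 counts in the knockout libraries against 13, 0 and 0 in the controls, which edgeR did not call (log2 fold change 1.46 ± 1.46 SE, adjusted p 0.803). T cells keep the gene, so this does not check the labels. Over all genes, edgeR's quasi-likelihood test called 0 of 15928 (0.0%) at an adjusted p under 0.05, with 1377 at an unadjusted p under 0.05. Without control replicate 2 it called 0 of 16729 (0.0%), with 1499 at an unadjusted p under 0.05. DESeq2 called 525 (3.3%) with all 6 libraries and 452 (2.7%) without that library.

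Promoter sequences are shown for genes at which the results below turn, from RefSeq on GRCm38.p6, plus strand, 5′ to 3′. The first shows the start region of Gpr50, and Ankle1 is another of the knockout-higher genes. Pcsk1n is one of the control-higher genes. The windows of these 3 genes end at the base before the RefSeq start site. Car9 is shown as a short stretch only, around the core of the hypoxia response element. This stretch lies before the RefSeq start, but inside the Car9 gene as GENCODE annotates it, in the first exon of a transcript that starts at 43506966. Capitals mark CCAAT or its reverse complement ATTGG and GGGCGG (GC box core) in Gpr50, GGGCGG and TTTGAA (core of the cell cycle genes homology region) in Ankle1, GGGCGG in Pcsk1n, and CACGT, the reverse complement of ACGTG, in Car9.
Gpr50 (chrX:71663417-71663666): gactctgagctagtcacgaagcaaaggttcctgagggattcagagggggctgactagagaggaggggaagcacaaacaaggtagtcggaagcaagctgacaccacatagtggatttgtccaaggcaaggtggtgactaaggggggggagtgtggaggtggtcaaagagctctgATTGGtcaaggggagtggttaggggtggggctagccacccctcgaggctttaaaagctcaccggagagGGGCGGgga
Ankle1 (chr8:71405762-71406011): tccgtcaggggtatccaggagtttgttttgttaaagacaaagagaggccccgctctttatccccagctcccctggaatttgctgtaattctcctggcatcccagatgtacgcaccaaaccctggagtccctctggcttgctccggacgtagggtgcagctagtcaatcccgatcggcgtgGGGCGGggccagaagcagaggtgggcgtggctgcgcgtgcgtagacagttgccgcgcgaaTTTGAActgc
Pcsk1n (chrX:7919572-7919821): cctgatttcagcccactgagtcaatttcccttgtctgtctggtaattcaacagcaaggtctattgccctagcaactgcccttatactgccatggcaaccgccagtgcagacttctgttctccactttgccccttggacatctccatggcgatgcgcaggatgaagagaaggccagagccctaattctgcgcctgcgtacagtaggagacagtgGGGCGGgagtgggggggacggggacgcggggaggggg
Car9 (chr4:43506996-43507024): ctatttccgatgCACGTacagcccgtcca

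The RefSeq promoter table matched 36 of the 52 genes with 46 windows, 14 windows of 14 knockout-higher genes and 32 windows of 22 control-higher genes. The 250 bases before the start had a median GC content of 47.6% in the knockout-higher windows and 55.6% in the control-higher windows, against 52.4% over all 32851 windows. Each motif was searched on both strands. TTTGAA stood in 4 of 14 knockout-higher and 2 of 32 control-higher windows, against 16.0% of all windows, and GGGCGG in 4 of 14 and 13 of 32, against 32.7%. ACGTG stood in 2 of 14 and 4 of 32 (16.6% of all), CCAAT in 4 of 14 and 7 of 32 (33.8%), TATAAA in 1 of 14 and 0 of 32 (12.4%) and GCGGGAA in 0 of 14 and 1 of 32 (3.82%). In the printed sequences no match overlaps another, and a match describes letters only.

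Gpr50 had the highest summed count of the set, 1014 over the knockout libraries, and was at or near 0 in the controls. In knockout replicates 1 to 3 it stood at 723, 195 and 96 counts, and in control replicates 1 to 3 at 0, 0 and 3. The choice set all 3 knockouts above control replicates 1 and 3, and control replicate 2 was at 0. Knockout replicate 1 stood well above the other knockouts. In the authors' FPKM, a level per gene length, this was 6.86, 2.04 and 1.06 in knockouts and 0, 0 and 0.0321 in controls. The mean over knockouts was 13.7 ± 13.0 CPM (SD, n = 3), and the pooled knockout level was 241 times that of control replicates 1 and 3, with a 95% counting interval of 82.1 to 1169 that covers counting error only. The gene lies at chromosome X, 71663667 to 71669257, plus strand, with 2 exon blocks over 5.59 kb, and no other annotated gene overlaps it.

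The melatonin receptor genes and the neighbours of Gpr50 had other orders of libraries. Mtnr1a, a melatonin receptor gene, had 0, 1 and 0 counts in the knockout libraries against 0, 31 and 8 in the controls, and Mtnr1b had 0 in each library. Of the 9 other genes of a list of melatonin receptors, inhibitory G protein subunits and reported Gpr50 partners, 7 were tested and edgeR called 0 (1 at an unadjusted p under 0.05; DESeq2 called 0 with 6 libraries and 1 without control replicate 2), with a median log2 fold change of 0.16 beside −0.03 over all genes. The nearest genes with a mean of 10 or more counts were Hmgb3, a chromatin protein gene 103 kb before it, and the ribosomal pseudogene Rpl30-ps10 134 kb after it. Hmgb3 had 363, 345 and 597 counts in the knockout libraries against 845, 146 and 539 in the controls (edgeR log2 fold change −0.45 ± 0.46 SE, adjusted p 0.804). Rpl30-ps10 had 52, 60 and 95 against 80, 427 and 69, with the highest value in the library of liver profile.

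**Figure D1:**
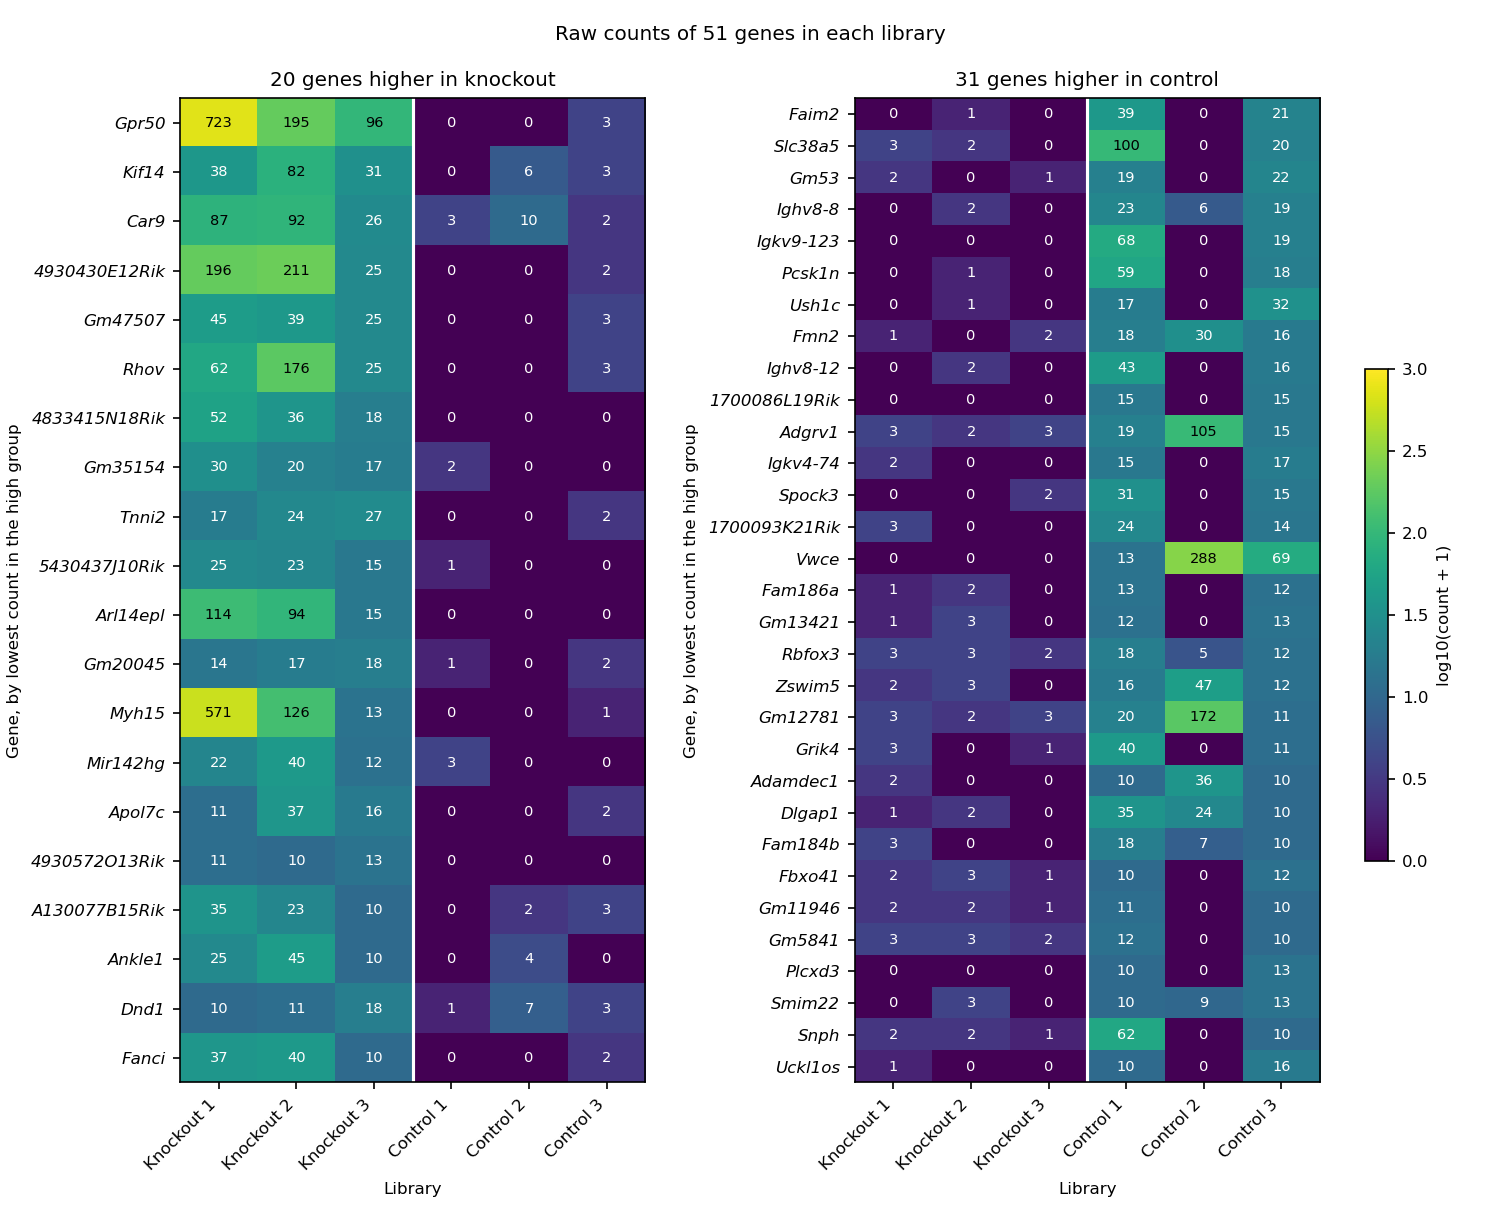
Raw counts of 51 of the 52 genes (one gene per line, libraries across, number printed in each cell, colour as log10 of count + 1), with the 20 genes higher in knockouts at left and 31 higher in controls at right, ordered by the lowest count in the high group. Gpr50 tops the left panel at 723, 195 and 96 counts, and the control 2 column is near 0 in most lines of both panels.

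Myh15 and Tnni2, known from muscle, and Rhov were also higher in knockouts. Myh15, a myosin heavy chain gene, had 571, 126 and 13 counts in the knockout libraries against 0, 0 and 1 in the controls. The knockouts themselves thus differed 43.9-fold in Myh15. Tnni2, the inhibitory troponin subunit of fast skeletal muscle, had 17, 24 and 27 counts in the knockout libraries against 0, 0 and 2 in the controls, the most even values of the 3 genes, with the highest count in knockout replicate 3. Rhov, the gene of an atypical small GTPase, had 62, 176 and 25 counts in the knockout libraries against 0, 0 and 3 in the controls. The choice set control replicates 1 and 3 below every knockout in these 3 genes, and control replicate 2 was at 0 in each.

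Other genes of these families did not pass the edgeR test. Of 13 other myosin heavy chain genes 4 were tested, edgeR and DESeq2 called 0 with 0 at an unadjusted p under 0.05, and 6 were under 10 counts in every library. Among troponin I genes, the cardiac form Tnni3 had 22, 30 and 17 counts in the knockout libraries against 3, 0 and 4 in the controls, and missed the choice by 1 count in control replicate 3. Tnni3 had a log2 fold change of 2.99 ± 0.92 (SE) with edgeR (adjusted p 0.560), while DESeq2 called it with all 6 libraries (adjusted p 0.0446). Without control replicate 2 neither tool called Tnni3 (edgeR adjusted p 0.540, DESeq2 adjusted p 0.116). The slow form Tnni1 had 4, 7 and 4 counts in the knockout libraries against 0, 0 and 1 in the controls. The 10 skeletal muscle markers, Tnni2 among them, summed to 37.8, 36.0 and 143 CPM in the knockout libraries against 64.4, 2.34 and 68.8 in the controls, so the groups overlapped. Of the other 9 markers 4 were tested, 2 had a log2 fold change above 0, and edgeR and DESeq2 called 0, with 0 at an unadjusted p under 0.05. Ckm, the muscle creatine kinase gene, had 0 to 3 counts in each library. Rhou, the relative of Rhov, had 435, 726 and 911 counts in the knockout libraries against 1751, 1567 and 1027 in the controls, and edgeR did not call it.

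Among the 20 knockout-higher genes 3 are known from cell division or DNA repair, Kif14, Fanci and Ankle1, a grouping made after their counts were seen. Kif14, a kinesin of cytokinesis, had 38, 82 and 31 counts in the knockout libraries against 0, 6 and 3 in the controls. Fanci, the partner of Fancd2 in crosslink repair, had 37, 40 and 10 counts in the knockout libraries against 0, 0 and 2 in the controls. Ankle1, a LEM-domain endonuclease gene, had 25, 45 and 10 counts in the knockout libraries against 0, 4 and 0 in the controls. All 3 were highest in knockout replicate 2 and lowest in knockout replicate 3. The choice set every knockout above control replicates 1 and 3, and control replicate 2 (6, 0 and 4 counts) also lay below every knockout. Of 9 other Fanconi anaemia genes tested, edgeR and DESeq2 called 0, with 0 at an unadjusted p under 0.05. Fancd2 had 69, 115 and 11 counts in the knockout libraries against 35, 0 and 18 in the controls. Dlgap5, a spindle protein gene in the family of the control-higher Dlgap1, had 166, 197 and 49 counts in the knockout libraries against 12, 12 and 19 in the controls. Fancd2 thus overlapped between the groups. Dlgap5 did not, but it was named after its values were seen, and the share of all genes without overlap was not counted. Fanci shares exons with Polg on the other strand, which had 802 to 987 counts in the knockout libraries against 373 to 1038 in the controls (edgeR log2 fold change −0.10 ± 0.23 SE, adjusted p 0.932).

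Car9 encodes a carbonic anhydrase of the cell surface that is induced by low oxygen. It had 87, 92 and 26 counts in the knockout libraries against 3, 10 and 2 in the controls. The 10 counts were in control replicate 2, the highest value of any of the 20 genes in that library, and still lay under the lowest knockout. The pooled knockout level was 29.2 times that of control replicates 1 and 3 (95% counting interval 12.3 to 90.9, which covers counting error only). The annotated gene (chromosome 4, 43506966 to 43513729) overlaps the antisense RNA Gm12454, which had 4, 7 and 6 counts in the knockout libraries against 0, 26 and 4 in the controls, and reads of the overlap cannot be assigned by strand from the sources used here. Of 15 other carbonic anhydrase genes 11 were tested, edgeR called 0 (3 at an unadjusted p under 0.05) and DESeq2 called 1, the cytosolic form Car1.

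The remaining protein-coding genes of this direction were Arl14epl and Dnd1, both on chromosome 18 but not within 1 Mb of each other, and an apolipoprotein L gene. Arl14epl, a gene named for its likeness to an effector of the small GTPase Arl14, had 114, 94 and 15 counts in the knockout libraries against 0 in every control. The pooled knockout level was at least 52.9 times higher, taking 3 counts over control replicates 1 and 3 together as the floor. Dnd1, an RNA-binding protein of germ cells, had 10, 11 and 18 counts in the knockout libraries against 1, 7 and 3 in the controls, so it lay near the thresholds on both sides. It shares exons with Wdr55, which had 342 to 362 counts in the knockout libraries against 214 to 486 in the controls. Apol7c had 11, 37 and 16 counts in the knockout libraries against 0, 0 and 2 in the controls. Its close paralogues Apol7a and Apol7d were highest in control replicate 2, with 1235 and 25 counts there, and reads shared between these copies cannot be placed with certainty.

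Noncoding genes made up 8 of the 20 (40%), against 18.9% of the 3698 genes whose lowest knockout count lay in the same range. That range ran to 96 counts through Gpr50 alone, the next of the 20 being Kif14 at 31. Among genes whose lower count in control replicates 1 and 3 was 10 to 21, 27.5% were long noncoding. 4930430E12Rik, annotated as antisense, had 196, 211 and 25 counts in the knockout libraries against 0, 0 and 2 in the controls. Gm47507 had 45, 39 and 25 against 0, 0 and 3, and 4833415N18Rik had 52, 36 and 18 against 0 in each control. These 3 genes were lowest in knockout replicate 3, and their lack of overlap with control replicates 1 and 3 was set by the choice. Mir142hg, the host transcript of a microRNA of blood cells, had 22, 40 and 12 counts in the knockout libraries against 3, 0 and 0 in the controls. Gm35154 had 30, 20 and 17 counts in the knockout libraries against 2, 0 and 0 in the controls. Gm48065, which shares exons with Gm35154 on the other strand, had 48, 38 and 9 counts in the knockout libraries against 0, 0 and 4 in the controls. All of these were at 0 in control replicate 2. Gm20045 (14, 17 and 18 against 1, 0 and 2), A130077B15Rik (35, 23 and 10 against 0, 2 and 3) and 4930572O13Rik (11, 10 and 13 against 0 in each control) had lower counts. The transcribed pseudogene 5430437J10Rik had 25, 23 and 15 counts in the knockout libraries against 1, 0 and 0 in the controls, and reads of a parent gene could have been counted there.

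**Figure D2:**
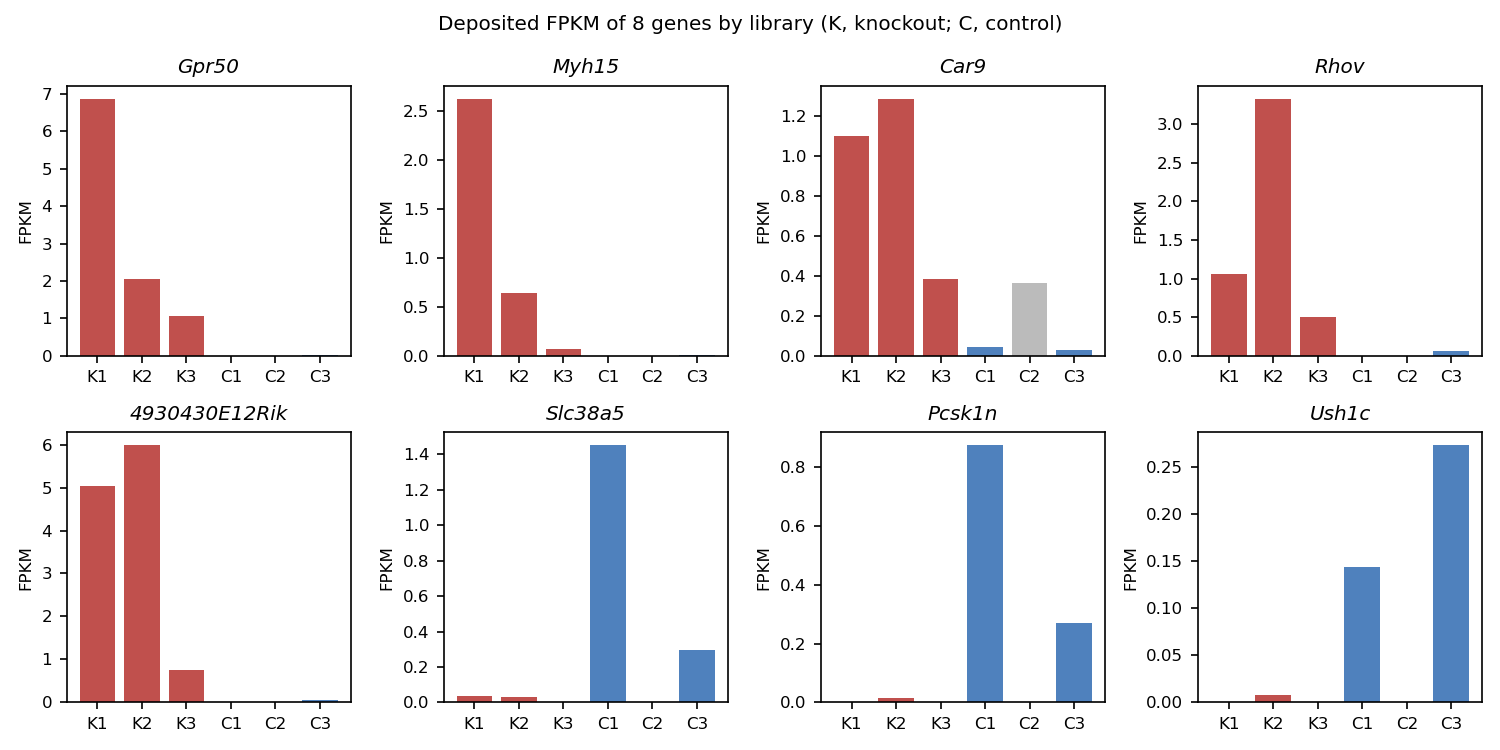
FPKM as deposited for 8 of the genes, one bar per library from 0 (K, knockout replicates; C, control replicates; control 2 in grey), each panel with its own axis. Gpr50 reached 6.86 in K1, Myh15 was far lower in K3 than in K1, and Slc38a5, Pcsk1n and Ush1c had bars in C1 and C3 and none in C2.

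The knockout libraries were not alike in these 20 genes. The median count was 36 in replicate 1, 39.5 in replicate 2 and 17.5 in replicate 3, and replicate 3 was lowest in 15 genes and highest in 4. The summed macrophage markers had the order of these medians, but replicates 1 and 2 were each highest in 8 of the 20 genes. That order was not particular to macrophages. In knockout replicates 1 to 3 the fibroblast and adipose progenitor list (3929, 9372 and 2188 CPM) and the mast cell and eosinophil list (53.6, 76.0 and 28.7 CPM) had it too. Other lists, such as endothelium (1010, 957 and 870 CPM), did not. The 15 macrophage markers summed to 5639, 6885 and 1547 CPM in the knockout libraries against 1371, 285 and 1260 in the controls. Of these, 14 had a log2 fold change above 0, edgeR called 0 (10 at an unadjusted p under 0.05) and DESeq2 called 6, with a median of 1.82 beside −0.03 over all genes. Without control replicate 2 the median was 1.41, and DESeq2 called 4. Knockout replicates 1 and 2 thus stood apart from the other libraries in this list. Lyz2, the Cre driver locus, had 59518, 66533 and 9698 counts in the knockout libraries against 7995, 1376 and 10053 in the controls (edgeR log2 fold change 2.56 ± 0.85 SE, adjusted p 0.560; DESeq2 adjusted p 0.0390). Without control replicate 2 neither tool called it (edgeR log2 fold change 2.24 ± 0.82 SE, adjusted p 0.540; DESeq2 adjusted p 0.0545). The 15 T cell markers summed to 160, 178 and 63.9 CPM in the knockout libraries against 27.8, 9.85 and 33.8 in the controls, with 13 of 15 above 0, edgeR calling 0 (2 at an unadjusted p under 0.05) and DESeq2 calling 2. The part of these cells in the counts of the 20 genes was not tested.

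Slc38a5, Pcsk1n and Faim2 were among the genes higher in control replicates 1 and 3. Slc38a5, a glutamine transporter gene, had 3, 2 and 0 counts in the knockout libraries against 100, 0 and 20 in the controls. Pcsk1n, whose product proSAAS inhibits prohormone convertase 1, had 0, 1 and 0 counts in the knockout libraries against 59, 0 and 18 in the controls. Faim2, a neuronal inhibitor of Fas-driven death, had 0, 1 and 0 counts in the knockout libraries against 39, 0 and 21 in the controls. In all 3 genes control replicate 1 was highest and control replicate 2 was at 0, so the control group as a whole overlapped the knockouts. The pooled level in control replicates 1 and 3 was 33.7 times that of the knockouts for Slc38a5 (95% counting interval 14.1 to 106), 108 times for Pcsk1n (18.8 to 4326) and 84.3 times for Faim2 (14.6 to 3383). These ratios use the counts that chose the genes, and the intervals cover counting error only, not the spread between libraries. Of 10 other genes of the Slc38 transporter family 8 were tested, edgeR called 0 (1 at an unadjusted p under 0.05) and DESeq2 called 2, Slc38a3 and Slc38a4, which were highest in control replicate 2. Of 7 proprotein convertase genes 5 were tested and both tools called 0, with 0 at an unadjusted p under 0.05. Pcsk1, the target of the Pcsk1n product, had 8, 4 and 15 counts in the knockout libraries and 0 in every control. Pcsk1 lies near the detection floor and was named after its values were seen, and the share of all genes without overlap was not counted. Pcsk2, another convertase gene, had 7, 1 and 2 counts in the knockout libraries against 31, 0 and 3 in the controls.

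Among the other genes higher in controls, Dlgap1, Grik4, Snph, Spock3 and Rbfox3 are known from neurons, and they too were grouped after their counts were seen. Dlgap1, a postsynaptic scaffold gene, had 1, 2 and 0 counts in the knockout libraries against 35, 24 and 10 in the controls. The choice set Dlgap1 above every knockout in control replicates 1 and 3, and it was also above them in the library of liver profile. Grik4, a kainate receptor subunit gene, had 3, 0 and 1 counts in the knockout libraries against 40, 0 and 11 in the controls. Snph (syntaphilin, which anchors axonal mitochondria) had 2, 2 and 1 against 62, 0 and 10. Spock3, a testican proteoglycan gene, had 0, 0 and 2 against 31, 0 and 15. Grik4, Snph and Spock3 thus were at 0 in control replicate 2. Rbfox3, the splicing factor known as NeuN, had 3, 3 and 2 against 18, 5 and 12, and its control replicate 2 lay above the knockouts.

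The other genes of these families were called by neither edgeR nor, with 1 exception, DESeq2. The 2 other Rbfox genes, the 2 other Spock genes and the 4 other kainate receptor genes gave 3 tested genes in all, none of them called. Among the 4 other Dlgap genes 2 were tested and DESeq2 called 1, Dlgap5. The 13 neuron and Schwann cell markers summed to 92.4, 79.8 and 83.6 CPM in the knockout libraries against 66.6, 3.48 and 71.5 in the controls. Of these markers 6 were tested, 5 had a log2 fold change above 0 (median 0.84), and edgeR and DESeq2 called 0, with 0 at an unadjusted p under 0.05. Without control replicate 2 the median fell to 0.30, with 4 of 6 above 0 and 0 called by either tool. Single markers of this list stood apart in control replicate 1, with Snap25 at 145 counts there against 0 to 3 in the other libraries. Nefl was at 18 there against 0 to 2, and Dbh at 12 against 0. Others did not, such as Syp with 942, 610 and 1022 counts in the knockout libraries against 337, 18 and 777 in the controls. Of the 13 markers, 7 had their highest CPM in a knockout library and 6 in a control library. The part of nerve tissue in the counts of the 32 genes was not tested.

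Ush1c and Adgrv1, known from sensory or other epithelia, were also among the control-higher genes, as were Fmn2 and Vwce. Ush1c, which encodes the scaffold harmonin of hair cells and gut epithelium, had 0, 1 and 0 counts in the knockout libraries against 17, 0 and 32 in the controls, and was higher in control replicate 3 than in replicate 1. Adgrv1, an adhesion receptor gene of the Usher syndrome group, had 3, 2 and 3 counts in the knockout libraries against 19, 105 and 15 in the controls, highest in control replicate 2. Fmn2, an actin-nucleating formin gene, had 1, 0 and 2 against 18, 30 and 16. Vwce, a gene with von Willebrand factor C and EGF domains, had 0 in each knockout and 13, 288 and 69 counts in controls. Adgrv1, Fmn2 and Vwce had their highest count in the library of liver profile. They were above the knockouts there as well as in control replicates 1 and 3, where the choice required it. The 16 hepatocyte markers summed to 17.3, 1688 and 128 CPM in the knockout libraries against 29.9, 145752 and 8856 in the controls, and the level of Vwce in controls had the same order of libraries. Knockout replicate 2 had the highest hepatocyte sum among knockouts and 0 counts of Vwce. Of 8 other genes of the Usher group 5 were tested and edgeR and DESeq2 called 0, with 0 at an unadjusted p under 0.05.

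The 16 markers of the epididymis, which lies against this fat pad, summed to 3.69, 7.19 and 2.91 CPM in the knockout libraries against 55.6, 2.04 and 10.8 in the controls. Crisp1, a secreted protein of the epididymal duct, had 68, 70 and 5 counts in the knockout libraries against 1033, 33 and 205 in the controls, and Crisp4 was at 0 in every library. Crisp1 made up 37.9 CPM of the sum in control replicate 1 and 8.45 CPM in control replicate 3, and Defb42, a defensin gene, a further 14.8 CPM in control replicate 1. Of the 16 markers, 8 had their highest CPM in a knockout library, such as Lcn8 with 0, 11 and 24 counts in the knockout libraries against 6, 0 and 0 in the controls, and 7 in a control library. The filter kept 1 of the 16, Crisp1, and neither edgeR nor DESeq2 called it, with 1 at an unadjusted p under 0.05. Without control replicate 2 it kept Lcn8, Crisp1 and Rnase10, of which 2 had a log2 fold change above 0 (median 1.56). EdgeR then called 0 of these 3 and DESeq2 called 1, Crisp1. The 9 neutrophil markers summed to 250.4 CPM in control replicate 1 and to 13.7 to 32.6 CPM in the other libraries, and of 5 tested edgeR called 0 (3 at an unadjusted p under 0.05) and DESeq2 called 2. Control replicate 1 was thus highest in the summed level of the epididymis and neutrophil lists, and it was also the higher of the 2 controls in 21 of the 32 genes, against 9 for control replicate 3, with median counts of 18 and 13.5. The part of these cells in the result was not tested.

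**Figure D3:**
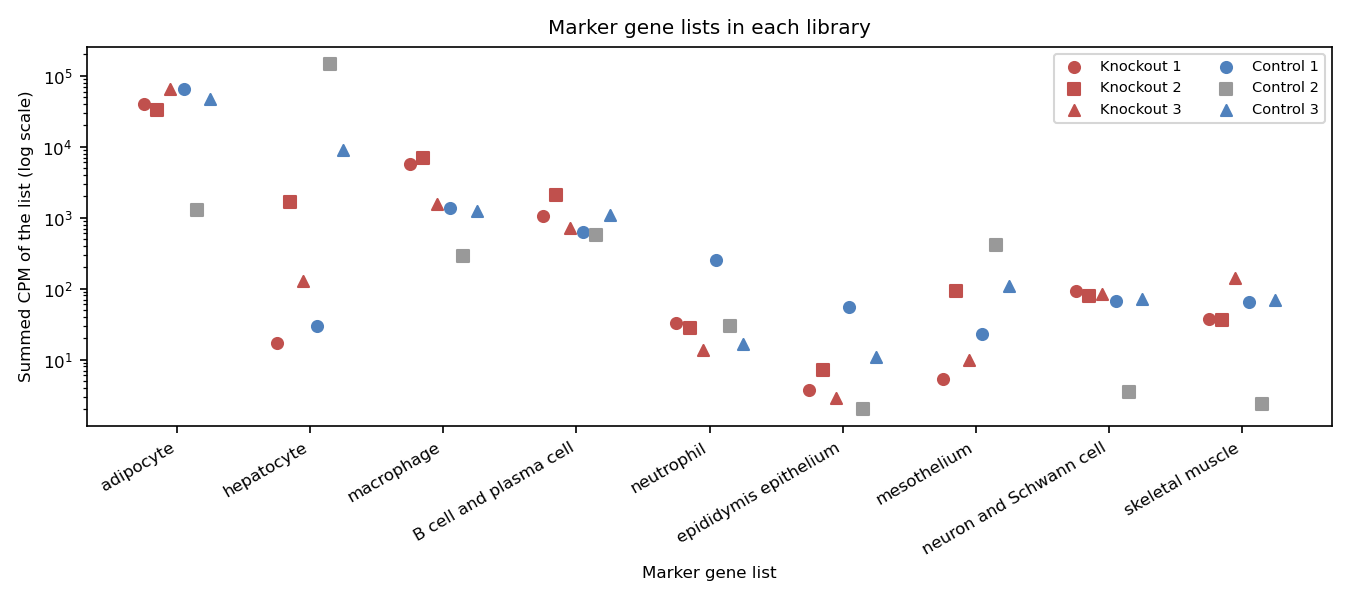
Summed CPM of each marker gene list (log scale) by library, knockouts in red, control replicates 1 and 3 in blue and control replicate 2 in grey, with shapes for the replicate number. Control 1 is highest in the epididymis (55.6) and neutrophil (250.4) lists, knockouts 1 and 2 are highest in the macrophage list (5639 and 6885), and control 2 stands at 145752 in the hepatocyte list.

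Antibody variable segments made up 4 of the 32 genes (12.5%), against 1.03% of the 1455 genes whose lower count in control replicates 1 and 3 lay in the same range. Igkv9-123, a kappa light chain segment, had 0 in each knockout and 68, 0 and 19 counts in controls. Ighv8-12, a heavy chain segment, had 0, 2 and 0 counts in the knockout libraries against 43, 0 and 16 in the controls. Ighv8-8 (0, 2 and 0 against 23, 6 and 19) and Igkv4-74 (2, 0 and 0 against 15, 0 and 17) were lower. Per gene length these segments held the 4 highest levels of the 32 genes in control replicate 3, at 1.42 to 1.74 FPKM. Over all 218 variable segments, counts summed to 633, 4385 and 157 in knockouts and 1478, 685 and 2572 in controls, so that knockout replicate 2 had the highest sum. Of these, 92 reached 10 counts in at least 1 library and 42 did so in exactly 1 library. The number at 10 or more in all 3 knockouts was 2, and in both control replicates 1 and 3 it was 20. These numbers are not like for like, since the first asks for 3 libraries and the second for 2. By library, 18, 41 and 4 segments reached 10 counts in the knockouts, and 43, 21 and 44 in the controls. The 9 segments of the Ighv8 family summed to 2, 5 and 0 counts in the knockout libraries against 78, 6 and 44 in the controls, and reads of such near-identical segments cannot be placed with certainty. The 15 B and plasma cell markers summed to 1066, 2092 and 707 CPM in the knockout libraries against 628, 571 and 1092 in the controls, with 9 of 15 above 0, edgeR calling 0 (4 at an unadjusted p under 0.05) and DESeq2 calling 4.

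The other genes higher in controls had 10 to 24 counts in control replicates 1 and 3. Gm53 had 2, 0 and 1 counts in the knockout libraries against 19, 0 and 22 in the controls. 1700086L19Rik (0 in each knockout; 15, 0 and 15 in controls) and 1700093K21Rik (3, 0 and 0 against 24, 0 and 14) had no counts in control replicate 2. Gm12781, an antisense RNA that overlaps Kctd15, had 3, 2 and 3 counts in the knockout libraries against 20, 172 and 11 in the controls, where Kctd15 had 191 to 399 in knockouts and 143 to 408 in controls. Zswim5 (2, 3 and 0 against 16, 47 and 12) and Adamdec1 (2, 0 and 0 against 10, 36 and 10), a metalloprotease-like gene, were highest in control replicate 2. Smim22 had 0, 3 and 0 against 10, 9 and 13, and Fam184b had 3, 0 and 0 against 18, 7 and 10. The remaining 7 genes, Fam186a, Gm13421, Fbxo41, Gm11946, Gm5841, Plcxd3 and Uckl1os, had 10 to 16 counts in control replicates 1 and 3, 0 to 3 in knockouts and 0 in control replicate 2. Gm5841 is a processed pseudogene, Gm11946 shares exons with Smtn, and Uckl1os with Uckl1 and Zfp512b, all of them genes with far more counts, so that these 3 values are uncertain.

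Control replicate 2 gave values that the choice had not used. Of the 20 knockout-higher genes, 16 had 3 or fewer counts there, 15 of them 0, against 33.5% of genes in the same range of lowest knockout count. The others were Kif14 at 6, Car9 at 10, Ankle1 at 4 and Dnd1 at 7 counts. Of the 32 control-higher genes, 8 had 10 or more counts there, among them Adgrv1, Fmn2, Vwce, Zswim5, Gm12781, Adamdec1 and Dlgap1, against 33.7% of genes in the same range of lowest control count. For 20 of the 32 the count was 0. The 8 of 32 are not above the 33.7%, which is over genes with no limit on their knockout counts. The 33.5% is likewise over genes with no limit on their control counts. The 20 genes were chosen for low counts in the other controls, so the 16 of 20 against that share is no independent check. Since control replicate 2 had a liver profile, its zeros do not tell a low level in control fat from the absence of fat RNA.

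Within their thresholds the 2 directions differed in depth. In the knockout-higher genes the lowest knockout count ran from 10 to 96 with a median of 15, and 7 of 20 lay at 10 to 12. In the control-higher genes the lower of the counts in control replicates 1 and 3 ran from 10 to 21 with a median of 12, and 17 of 32 lay at 10 to 12. A low-group count of 3 occurred in 8 and 13 genes, and all low-group libraries of the choice were at 0 in 4 genes of each direction. The members made up 0.541% of genes with a lowest knockout count in the same range, and 2.2% of genes with a lowest control count in the same range. The first range was 10 to 96 counts, widened by Gpr50, and the second 10 to 21, so these shares are not like for like. Just outside, 16 genes had a lowest knockout count of 8 or 9 and 15 a highest control count of 4, while in the other direction there were 24 and 19. The B cell factor Pax5 (76, 77 and 11 counts in knockouts; 4, 0 and 4 in controls), the chemokine Ccl4 (43, 79 and 11; 3, 4 and 4) and the lipase Lipn (32, 92 and 8; 0 in each control) were on the outside of the knockout-higher genes. On the outside of the control-higher genes lay Wfdc15b (0, 4 and 0 counts in knockouts; 113, 25 and 10 in controls), the serine protease Tmprss2 (2, 4 and 0; 56, 51 and 44) and the sodium-proton exchanger Slc9a3 (0, 4 and 0; 31, 4 and 63).

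Gene length and position were not used in the choice. The 21 protein-coding genes higher in controls had a median length of 48.7 kb from start to end, against 21.1 kb in the 867 coding genes of the same count range. Of these, 8 (38.1%) were 200 kb or longer, against 7.38% in that range, among them Dlgap1 (852 kb), Adgrv1 (538 kb), Grik4 (426 kb), Rbfox3 (422 kb), Spock3 (406 kb), Fmn2 (321 kb) and Plcxd3 (200 kb). The 11 coding genes higher in knockouts had a median of 6.76 kb, against 21.5 kb in 2598 coding genes of their count range, and the longest, Myh15, spanned 142 kb. These are descriptions of the chosen genes, with no test.

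**Figure D4:**
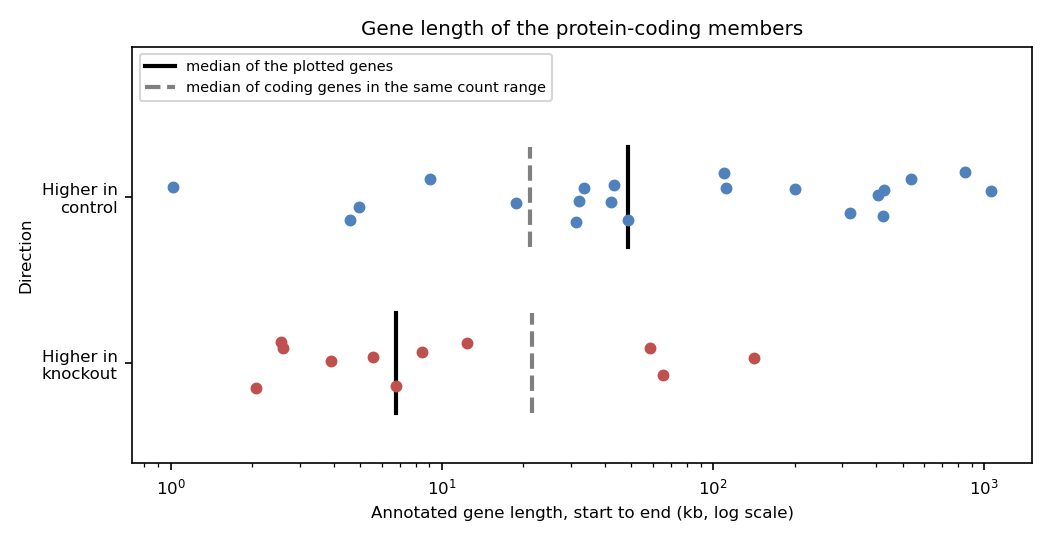
Length from annotated start to end (kb, log scale) of the 21 protein-coding genes higher in controls and the 11 higher in knockouts, one point per gene. Solid lines are the medians (48.7 and 6.76 kb), dashed lines the medians of coding genes in the same count range (21.1 and 21.5 kb), and 8 genes higher in controls lie at 200 kb or beyond.

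The 52 genes were spread over the genome, and 3 pairs of the same direction lay within 1 Mb of each other. Pcsk1n and Slc38a5 lay 347 kb apart on chromosome X (7919822 to 7924410 and 8271133 to 8280179). Faim2 and Fam186a lay 390 kb apart on chromosome 15, and Ighv8-8 and Ighv8-12 353 kb apart within the heavy chain locus of chromosome 12. Genes between the first pair, such as the deacetylase gene Hdac6 (295 to 367 counts in knockouts, 252 to 393 in controls), and between the second, such as the glycerol phosphate dehydrogenase gene Gpd1 (14361 to 19192 and 3149 to 11176), had more counts than the thresholds of the choice in all libraries. Among genes between these pairs with a mean of 10 or more counts, the lowest counts were in control replicate 2, with 18 for the channel gene Asic1, 25 for Racgap1 and 28 for Was. A further pair, Plcxd3 and 5430437J10Rik on chromosome 15, lay 921 kb apart and had opposite directions. Another annotated gene overlapped 7 of the 20 knockout-higher genes (35%, against 53.7% in the same count range) and 15 of the 32 control-higher genes (46.9%, against 55.0%). Counting exons only, the share was 4 of 20 (20%, against 33.1%) and 11 of 32 (34.4%, against 32.6%).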

How the data were processed

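RNA sequencing counts of 6 libraries were used, 3 knockout and 3 control. The authors deposited raw read counts per gene, whole numbers that were used for all choices and tests. The authors also deposited FPKM values, normalised for gene length with a library scale of their own, and these are shown beside counts only. Per the submitters' processing notes the tools were HISAT2 2.0.5 and featureCounts 1.5.0-p3, beside fastp and StringTie 1.3.3b, with build mm10. Their roles, the strand setting and the annotation were not given in the sources used here. Coordinates, gene classes and overlaps are from GENCODE vM21 on GRCm38, the assembly of mm10, and 54495 of 54532 identifiers had a symbol.

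CPM is the count scaled to the library total. Pooled ratios compare summed counts per summed total in the 5 libraries of the choice, with exact 95% counting intervals, or a floor of 3 counts over the group where all were 0. The same count range of a direction is the range of its members' lowest count in the high group. It was 10 to 96 for the knockout-higher genes, with the upper end set by Gpr50 alone, and 10 to 21 for the control-higher genes. The genotype contrast was fitted over all genes with edgeR 4.0.16 (R 4.3.3; quasi-likelihood, filterByExpr, TMM, Benjamini-Hochberg at 0.05), with SE as the fold change over the root of F, and with DESeq2 1.42.0 and limma-voom (limma 3.58.1) as alternatives. Of the 52 genes, 25 passed that filter with 6 libraries and 46 without control replicate 2. Replicate pairs differed by far more than sampling noise (chi-square per degree of freedom 56.8 to 1112). With counts simulated at the spread of all 6 libraries, edgeR called 0, 0, 0 and 13 of 50 genes changed 2-, 4-, 8- and 16-fold. DESeq2 called 0, 11, 34 and 44 of 50, with 82 of 15238 unchanged genes. Control replicate 2 was among the libraries that gave this spread, so these numbers do not apply to the contrast without it.

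The members, gene lists and families were chosen with earlier results of these data known. Genes named are Gpr50, the 15 members per direction with the highest lowest count in the high group, members near the thresholds, in pairs within 1 Mb or overlapping another gene, and up to 6 genes just outside, taken as the 3 per direction with the highest summed counts. Also named are Mtnr1a, Mtnr1b, Pdcd1, Lyz2, neighbours and overlapping genes. Other family and marker genes were named after their values were seen. Of the 52 genes, 1 is counted in the totals and not reported here by name.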

Additional observations from a re-analysis of the deposited data

How the results depend on the processing

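The number of genes that met the choice depended on its thresholds. With 20 counts in place of 10 there were 6 higher in knockouts and 2 higher in controls, and with 5 counts 83 and 147. A low limit of 0 counts gave 4 and 4, and a limit of 1 count 6 and 8. Counts scaled to the smallest library total gave 16 and 14, of which 14 and 14 were members. Scaling by TMM to the smallest effective library size gave 12 and 7, of which 6 and 0 were members, since it lowers all counts against fixed thresholds. Scaling by TMM to the mean effective size of the 5 libraries, chosen after seeing the data, gave 10 and 30, all of them members. Control replicate 2 counted among the controls left 16 and 8. Leaving out 1 of the 5 libraries relaxes the choice, and gave 24 to 239 genes higher in knockouts (highest without control replicate 3, 77 without knockout replicate 3 and 56 without control replicate 1) and 47 to 405 higher in controls (highest without control replicate 3, 240 without control replicate 1, 99 without knockout replicate 2 and 51 without knockout replicate 3). Over all genes, edgeR's 0 calls became 525 with DESeq2 and 452 with DESeq2 without control replicate 2, a setting chosen after seeing the data, and stayed 0 under the 11 other settings. Among marker list genes the DESeq2 counts were 25 and 14, against 0 with edgeR. Overlap counted by exons gave 4 knockout-higher genes in place of 7. The labels give no replicate numbers shared by the groups. With the title number series (knockout replicate 3 and control replicate 3 against the rest) as a term, edgeR called 0, with 761 genes at an unadjusted p under 0.05 in place of 1377. Depth limits the set: 3 counts are the detection floor in libraries of 20108185 to 27225533 counts, and a count of 10 lies close to it.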
